A study of Mus musculus with 8 samples.

Results

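The 44 mouse collagen alpha chain genes were described in hippocampus, with members taken by name: every gene whose symbol was Col, a number, a and a number, 44 of the 55188 genes listed. Of these, 11 encode fibrillar collagens, 9 collagens of basement membranes and 24 other collagens. The tissue was taken before fear conditioning from C57BL/6 mice labelled Pyk2 knockout (KO), Pyk2 being the tyrosine kinase that Ptk2b encodes, and from C57BL/6 mice labelled wild type (WT). There were 2 numbered KO animals and 2 numbered WT animals with 2 technical replicates each, 8 libraries in all, made from total RNA of mice that the labels call transgenic in both groups. Age, sex and the design of the knockout allele are not stated in the sources used. Nor do the labels say that each number is its own mouse, and p-values measure the spread between these numbered samples. Each library gave FPKM, a fragment number divided by transcript length and library total, and read totals were not used here.

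Collagens are secreted proteins whose 3 chains wind around each other through repeated triplets of residues that each hold a glycine. Fibrillar collagens form the rope-like fibres of connective tissue, and type IV collagen forms the mesh of basement membranes. Fibril-associated, short-chain, beaded-filament and transmembrane collagens decorate fibres, build hexagonal sheets and filaments or sit on cells. In brain, fibrillar collagens are chiefly made by fibroblasts of the meninges and around vessels, type IV collagen lies around endothelium and pericytes, and a few transmembrane collagens are made by neurons.

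Upstream sequences are shown for genes that encode partner chains and had low KO levels together. They are the 250 bases before the starts of Col8a1 and Col8a2, the chains of type VIII collagen, and the bases that separate the starts of Col4a4 and Col4a3, chains of one type IV network. They are from RefSeq on GRCm38.p6, written 5′ to 3′ in the direction of the gene (of Col4a3 for the last), with the GC box GGGCGG (either strand) in capitals.
Col8a1 upstream, chr16:57754738-57754987, minus strand: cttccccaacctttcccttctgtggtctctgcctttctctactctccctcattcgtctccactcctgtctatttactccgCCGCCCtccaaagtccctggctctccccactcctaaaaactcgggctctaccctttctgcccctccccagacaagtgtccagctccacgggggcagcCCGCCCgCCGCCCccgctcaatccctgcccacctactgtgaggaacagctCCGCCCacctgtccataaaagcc
Col8a2 upstream, chr4:126286544-126286793, plus strand: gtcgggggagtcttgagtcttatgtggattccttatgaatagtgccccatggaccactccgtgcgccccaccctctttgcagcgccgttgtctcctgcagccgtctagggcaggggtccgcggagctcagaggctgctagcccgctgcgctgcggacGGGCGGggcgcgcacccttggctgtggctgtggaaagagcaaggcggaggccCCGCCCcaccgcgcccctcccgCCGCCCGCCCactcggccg
Between Col4a4 and Col4a3, chr1:82586850-82586920, plus strand: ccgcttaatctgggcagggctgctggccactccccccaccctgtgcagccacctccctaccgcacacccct

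Each type VIII promoter held 4 GC boxes, which lay 165, 68, 61 and 18 bases before the start of Col8a1 and 88, 36, 14 and 10 bases before that of Col8a2, the last pair overlapping. RefSeq gave 38 promoters for 35 of the members, and 57.9% of these held GGGCGG in the 250 bases, against 32.7% of all 32851 mouse promoters. The other motifs searched on both strands were CCAAT, in 34.2% of the collagen promoters and 33.8% of all, and TATAAA, in 13.2% and 12.4%. The AP-1 motif TGANTCA was in 2.63% and 6.75%, and TAATCC in 0% and 6.25%. Such a match is a description of letters, not of a bound site, and the absence of a match refers only to these windows. The 71 bases between Col4a4 and Col4a3 held no GC box.

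The knockout was checked first, because every direction below rests on its label. Ptk2b was listed at 277, 279, 264 and 274 FPKM in the libraries labelled KO, against 232, 232, 203 and 202 FPKM in the WT libraries. The gene that should be disrupted was thus higher in all 4 libraries labelled KO, with means of 273 ± 6.33 FPKM in KO and 217 ± 21 FPKM in WT (SD, n = 2 each). Its log2 fold change of 0.34 (SE 0.07) was not past the threshold (limma adjusted p = 0.158). Permuting the 4 animals exactly gave a two-sided p of 0.333, which no outcome of this design can undercut. A value over the whole gene does not show whether an exon or the protein is missing, so KO means labelled KO throughout.

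Collagen genes were mostly lower in the KO animals, and none passed the test. Of the 44 genes, 29 had at least 0.5 FPKM in at least 2 of the 4 animals and were tested with limma on log2(FPKM + 1), fitted together with all 16667 genes above that level. At a Benjamini-Hochberg adjusted p under 0.05, 0 collagen genes were called, where 9 of all genes were, 0.054% of those tested and all of them lower in KO. Without KO2, 3 collagen genes were called, Col8a1, Col8a2 and Col9a3, where 128 of all genes were. At an unadjusted p under 0.05, 8 of the 29 were lower and 0 higher, where 11.4% of all genes were lower. Log2 fold changes were below 0 for 28 of the 29, where 58.0% of all genes were, and their median was -0.23, where that of all genes was -0.022. Without KO1, 25 of the 29 were below 0, where 54.2% of all genes were. The median was -0.18 without KO1, -0.31 without KO2 and also without WT1, and -0.14 without WT2. It was -0.36 with a pseudocount of 0.1. The scaling bears on this: after quantile normalization 24 of the 29 were below 0, where 41.1% of all genes were, and 7 of the 29 were lower at an unadjusted p under 0.05, where 7.95% of all genes were.

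By class the medians were -0.21 for the 8 fibrillar genes tested, -0.23 for the 5 basement membrane genes and -0.25 for the 16 others. With a pseudocount of 0.1 they were -0.41, -0.26 and -0.39 in the same order, after quantile normalization -0.11, -0.16 and -0.16, and without WT2 -0.12, -0.14 and -0.22. Among the tested genes, both KO animals lay below both WT animals in 19 of 29, where 30.7% of all genes did. All 4 KO libraries lay below all 4 WT libraries in 12 of the 29, where 13.0% of all genes did. Over all 44 genes, including those under the minimum, both KO animals were below both WT animals in 25, above both in 1 and between or among them in 18. Of all genes under the minimum and above 0 in at least 1 animal, 19.4% had both KO animals below both WT animals. One tested gene, Col17a1, reached the minimum in WT animals alone so that its gap follows in part from the minimum.

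**Figure D1:**
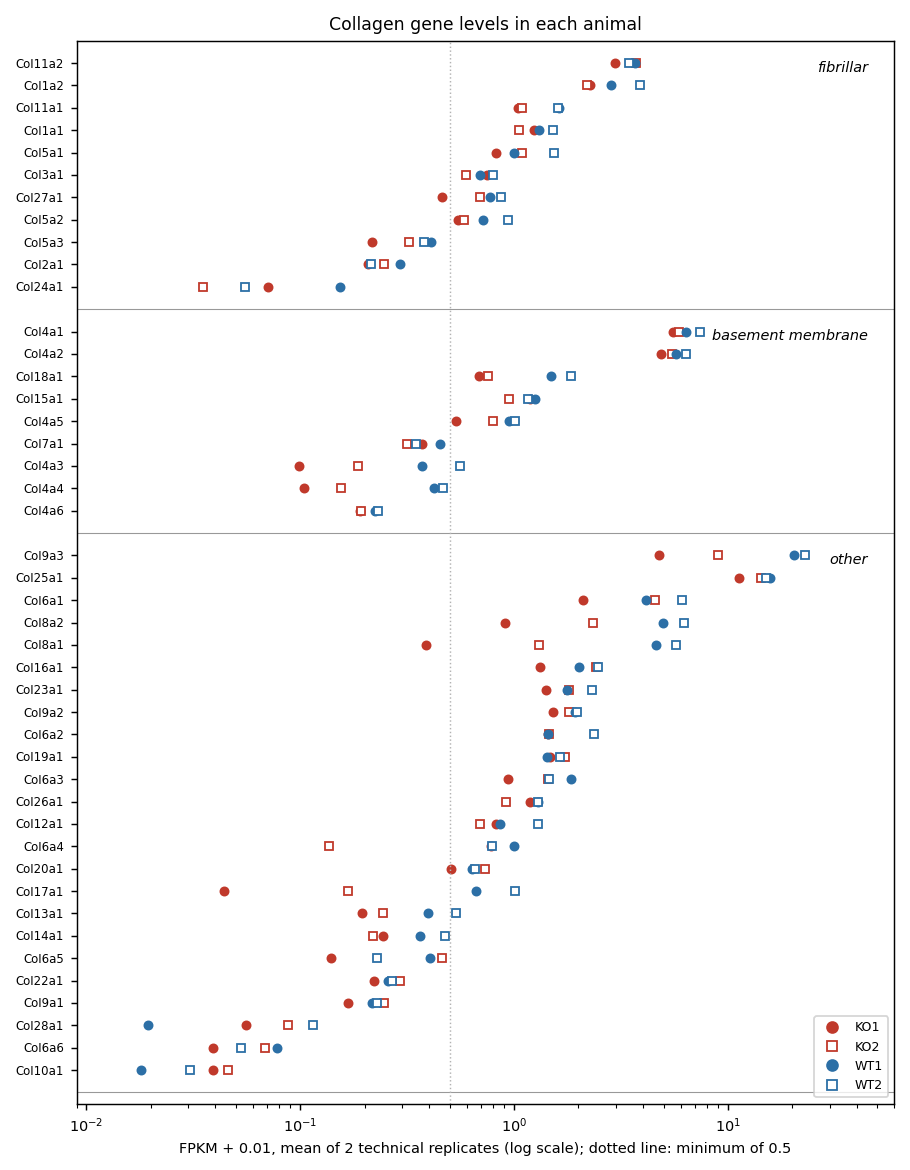
Level of each of the 44 collagen genes in FPKM plus 0.01 (log axis) in KO1, KO2, WT1 and WT2, each point the mean of 2 technical replicates, by class and ordered by mean within it. Both KO animals lie left of both WT animals in 25 of the 44 rows. Of all genes, 30.7% of those tested and 19.4% of those under the minimum and above 0 did so. The gaps are widest in Col8a1, Col8a2, Col9a3, Col17a1, Col4a3 and Col4a4. The dotted line is the minimum of 0.5 FPKM for testing.

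The summed FPKM of the 44 genes was 55.7 and 72.3 in KO1 and KO2, against 96.6 and 109 in WT1 and WT2, so the KO mean was 62.1% of the WT mean. The fibrillar sum was 10.5 and 11.5 FPKM in KO animals against 13.4 and 15.1 FPKM in WT animals, and the basement membrane sum 13.4 and 14.6 FPKM in KO animals against 17.1 and 19.3 FPKM in WT animals. These sums stood at 77.2% and 77.1% of their WT means, while the sum of other collagens stood at 55.3%. Most of that gap was in Col8a1, Col8a2 and Col9a3, which made up 10.8% and 17.4% of all collagen FPKM in KO animals and 30.9% and 31.8% in WT animals. Without these 3 genes, chosen after their values were seen, the KO sum was 77.4% of WT (means of 54.7 FPKM in KO and 70.7 FPKM in WT), the median log2 fold change of the other 26 tested genes was -0.22, and 25 of the 26 were below 0.

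Type VIII collagen, a short-chain collagen that builds hexagonal sheets, had low KO levels of both its chains. Col8a1 (chromosome 16, 57624258 to 57754737 in mm10) was listed at 0.395 and 0.362 FPKM in KO1 and 1.24 and 1.34 FPKM in KO2, against 4.55 and 4.64 FPKM in WT1 and 5.59 and 5.83 FPKM in WT2. The groups did not overlap, and the technical replicates lay far closer to each other than the animals did. The means were 0.835 ± 0.646 FPKM in KO and 5.15 ± 0.789 FPKM in WT (SD, n = 2 each), a KO mean at 16.2% of WT. The log2 fold change of -1.79 (SE 0.26, 95% interval -2.45 to -1.13) was the lowest of all 29 and did not pass in limma (adjusted p = 0.0996).

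Col8a2 (chromosome 4, 126286793 to 126314330), the partner chain, was at 0.823 and 0.974 FPKM in KO1 and 2.48 and 2.15 FPKM in KO2, against 4.57 and 5.30 FPKM in WT1 and 6.27 and 6.22 FPKM in WT2. Here too no KO library reached a WT library. Its log2 fold change was -1.39 (SE 0.28, limma adjusted p = 0.141). In this chain and in Col8a1, KO2 stood above KO1, 2.58 and 3.41 times as high. The chains were not low in proportion: the ratio of Col8a1 to Col8a2 was 0.421 and 0.557 in KO animals, against 0.931 and 0.914 in WT animals, and the 4 KO libraries (0.372 to 0.624) lay below the 4 WT libraries (0.876 to 0.995). Both genes have 2 coding exons, the longer of 1904 and 1916 bases, unlike the many short exons of the fibrillar genes. Col10a1, another short-chain collagen and a marker of hypertrophic cartilage, was at most a trace in brain, with means of 0.0324 FPKM in KO and 0.0143 FPKM in WT, and was the 1 gene of the 44 with both KO animals above both WT animals; its exons overlap Nt5dc1.

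Col9a3 (chromosome 2, 180597790 to 180622189), a chain of the fibril-associated type IX collagen, had the highest WT level of the family. It was at 3.63 and 5.88 FPKM in KO1 and 8.86 and 9.11 FPKM in KO2, against 21.1 and 19.4 FPKM in WT1 and 24.4 and 21.2 FPKM in WT2. All KO libraries were below all WT libraries, with means of 6.87 ± 2.99 FPKM in KO and 21.5 ± 1.78 FPKM in WT (SD, n = 2 each). The log2 fold change was -1.57 (SE 0.26, limma adjusted p = 0.114). An exon of Col9a3 overlaps one of Tcfl5, which was listed at 0.137 and 0.141 FPKM in KO animals against 0.213 and 0.251 FPKM in WT animals, and reads there cannot be assigned to a strand. The partner chains of type IX collagen had smaller gaps. Col9a2 averaged 1.65 ± 0.194 FPKM in KO and 1.94 ± 0.0341 FPKM in WT (SD, n = 2 each), with both KO animals below both WT animals. Col9a1 averaged 0.198 FPKM in KO and 0.213 FPKM in WT, with overlapping animals. The ratio of Col9a3 to Col9a2 was 3.13 and 5.02 in KO animals and 10.6 and 11.6 in WT animals.

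**Figure D2:**
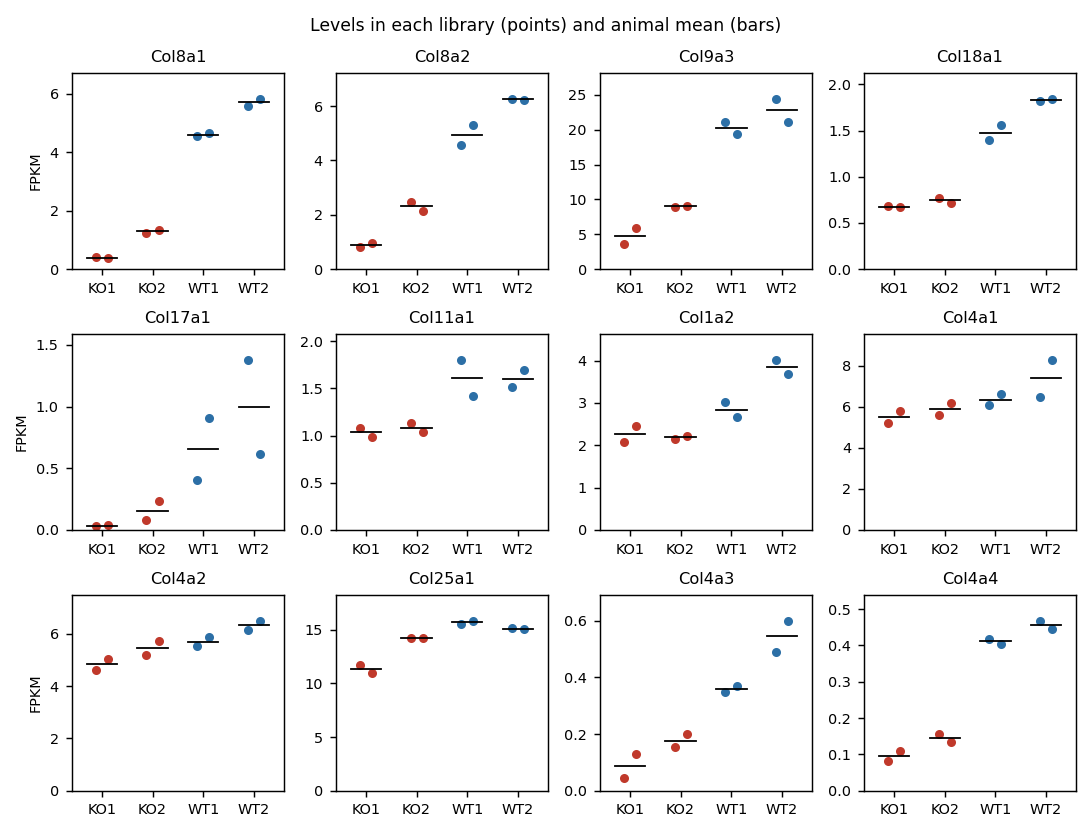
FPKM of 12 collagen genes in each of the 8 libraries (points, KO1, KO2, WT1 and WT2 from left to right) with the mean of each animal (bars), on axes starting at 0. The KO points lie below all WT points in Col8a1, Col8a2, Col9a3, Col18a1, Col17a1, Col11a1, Col1a2, Col25a1, Col4a3 and Col4a4, while Col4a1 and Col4a2 overlap by library.

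The basement membrane collagens differed in size of the gap. Col4a1 and Col4a2, the chains of the ubiquitous type IV network, start head to head on chromosome 8, where their annotated spans overlap by 22 bases. Col4a1 (11198423 to 11312826) was at 5.20, 5.81, 5.61 and 6.21 FPKM in KO libraries, against 6.09, 6.63, 6.49 and 8.31 FPKM in WT libraries. Col4a2 (11312805 to 11449287) was at 4.62, 5.05, 5.18 and 5.72 FPKM in KO libraries, against 5.54, 5.87, 6.14 and 6.51 FPKM in WT libraries. The libraries of the groups overlapped in both genes although the animal means did not. Their log2 fold changes of -0.23 (SE 0.09, limma adjusted p = 0.312) and -0.19 (SE 0.08, limma adjusted p = 0.363) were alike, but that of Col4a1 was -0.14 without WT2 and that of Col4a2 -0.12 without KO1 and after quantile normalization. The ratio of Col4a1 to Col4a2 was 1.14 and 1.08 in KO animals and 1.12 and 1.17 in WT animals.

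Col18a1 (chromosome 10, 77052178 to 77166548), a multiplexin whose C-terminal fragment is endostatin, had the lowest log2 fold change of the tested basement membrane genes. It was at 0.679, 0.672, 0.774 and 0.713 FPKM in KO libraries, against 1.40, 1.56, 1.82 and 1.84 FPKM in WT libraries. The KO libraries spanned a narrow range well under the lowest WT library, and the deposited confidence limits of the groups did not overlap (at most 1.02 FPKM in KO, at least 1.19 FPKM in WT). The log2 fold change was -0.63 (SE 0.10, limma adjusted p = 0.109) and -1.11 with a pseudocount of 0.1. Col15a1, the other multiplexin, averaged 1.05 ± 0.171 FPKM in KO and 1.20 ± 0.0648 FPKM in WT (SD, n = 2 each), and its groups overlapped.

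The chains of the specialised type IV networks were scarce. Col4a3 was at 0.0466, 0.131, 0.153 and 0.199 FPKM in KO libraries, against 0.347, 0.371, 0.491 and 0.601 FPKM in WT libraries. Col4a4 was at 0.0808, 0.109, 0.155 and 0.135 FPKM in KO libraries, against 0.417, 0.405, 0.468 and 0.446 FPKM in WT libraries. These neighbours, whose starts are 71 bases apart, were thus both low in every KO library, with KO means at 29.3% and 27.7% of WT. They stood under the minimum and so were not in the test. Fitted with no minimum they had log2 fold changes of -0.36 each and limma adjusted p of 0.395 and 0.355. The other head-to-head pair, Col4a5 and Col4a6 on the X chromosome, was less alike. Col4a5 averaged 0.655 ± 0.183 FPKM in KO and 0.971 ± 0.0480 FPKM in WT, and Col4a6 0.181 ± 0.00202 FPKM in KO and 0.217 ± 0.00385 FPKM in WT (SD, n = 2 each). Col7a1, which forms the anchoring fibrils of skin, averaged 0.333 FPKM in KO and 0.388 FPKM in WT, with overlapping animals.

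Among tested fibrillar collagens, Col1a2 and Col11a1 had the lowest log2 fold changes. Col1a2 (chromosome 6, 4504814 to 4541544), the second chain of type I collagen, was at 2.07, 2.44, 2.15 and 2.23 FPKM in KO libraries, against 3.01, 2.66, 4.02 and 3.69 FPKM in WT libraries. Col11a1 (chromosome 3, 114030540 to 114220718), which helps to set the width of fibrils, was at 1.08, 0.983, 1.13 and 1.03 FPKM in KO libraries, against 1.80, 1.42, 1.51 and 1.69 FPKM in WT libraries. Neither overlapped between groups, and neither passed in limma: the log2 fold changes were -0.42 (SE 0.13, adjusted p = 0.246) and -0.34 (SE 0.08, adjusted p = 0.168). That of Col1a2 was -0.25 without WT2, and that of Col11a1 -0.56 with a pseudocount of 0.1. Col1a1, the other type I chain, averaged 1.13 ± 0.131 FPKM in KO and 1.40 ± 0.146 FPKM in WT (SD, n = 2 each). The ratio of Col1a1 to Col1a2 was 0.542 and 0.475 in KO animals and 0.458 and 0.391 in WT animals.

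The other tested fibrillar genes showed smaller gaps in log2(FPKM + 1). Col11a2, the fibrillar gene with the highest level in FPKM over both groups, averaged 3.33 ± 0.532 FPKM in KO and 3.55 ± 0.151 FPKM in WT, and Col3a1, the partner of type I collagen in soft tissue, averaged 0.664 ± 0.108 FPKM in KO and 0.737 ± 0.0741 FPKM in WT (SD, n = 2 each). In both of these genes the KO and WT animals overlapped. Col5a1 averaged 0.950 FPKM in KO and 1.26 FPKM in WT, Col5a2 0.556 FPKM in KO and 0.818 FPKM in WT, and Col27a1 0.569 FPKM in KO and 0.809 FPKM in WT. Both KO animals lay below both WT animals in Col5a2 and Col27a1 but not in Col5a1. Col5a3, Col2a1 and Col24a1 were under the minimum, and the KO mean of Col24a1 was 45.8% of its WT mean. As genes, the fibrillar class is uniform: a median of 60 coding exons, of which a median of 83.3% are multiples of 9 bases, the length of 1 triplet repeat, against 43.9% in basement membrane genes and 53.5% in the others.

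**Figure D3:**
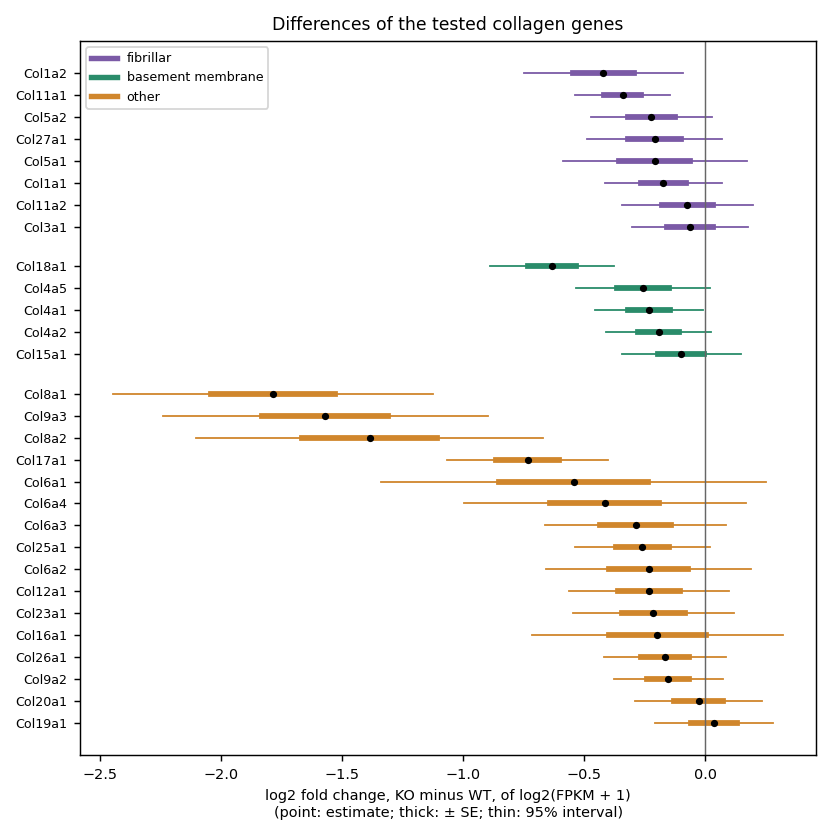
Log2 fold change, KO minus WT, of log2(FPKM + 1) for the 29 tested collagen genes (points), with ± SE (thick bars) and the 95% interval (thin bars) from limma, by class. All but Col19a1 lie left of 0 with FPKM as deposited (24 of 29 after quantile normalization), and Col8a1, Col9a3 and Col8a2 lie furthest left, at -1.79, -1.57 and -1.39.

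Transmembrane collagens included the gene of the family with the highest level in KO animals. Col25a1 (chromosome 3, 130131501 to 130599877), made by neurons and known for a shed part found in amyloid plaques, was at 11.7, 10.9, 14.2 and 14.2 FPKM in KO libraries, against 15.5, 15.9, 15.1 and 15.1 FPKM in WT libraries. It was the most abundant collagen transcript per length in KO animals and the second in WT animals after Col9a3. Its KO animals differed from each other by more than KO2 did from either WT animal, and its log2 fold change was -0.26 (SE 0.11, limma adjusted p = 0.346), against -0.11 without KO1 and -0.41 without KO2. Col17a1 (chromosome 19, 47646344 to 47692094), a part of the hemidesmosomes that anchor epithelia, was at 0.0321, 0.0357, 0.0770 and 0.236 FPKM in KO libraries, against 0.402, 0.905, 1.38 and 0.619 FPKM in WT libraries. No KO library reached a WT library, yet technical replicates of KO2, WT1 and WT2 differed more than 2 times, and the log2 fold change was -0.73 (SE 0.13, limma adjusted p = 0.117) and -2.30 with a pseudocount of 0.1. Col23a1 averaged 1.60 ± 0.280 FPKM in KO and 2.02 ± 0.380 FPKM in WT (SD, n = 2 each), and Col13a1, under the minimum, 0.209 FPKM in KO and 0.457 FPKM in WT.

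Among chains of type VI collagen, the beaded filament around cells, Col6a1 and Col6a4 varied widely within the KO group. Col6a1 was at 2.20 and 2.0 FPKM in KO1 and 4.75 and 4.34 FPKM in KO2, against 4.30 and 4.0 FPKM in WT1 and 5.80 and 6.39 FPKM in WT2. KO2 was thus 2.16 times as high as KO1 and above WT1, and the log2 fold change of -0.54 had an SE of 0.31 (limma adjusted p = 0.458). It was -0.13 without KO1, -0.96 without KO2 and -0.31 without WT2. Col6a4 went the other way, with 0.655 and 0.879 FPKM in KO1 and 0.124 and 0.129 FPKM in KO2, against 1.05, 0.932, 0.841 and 0.721 FPKM in WT libraries. Here KO1 was 6.06 times as high as KO2, and technical replicates of each animal lay close together. Col6a2, the partner of Col6a1, was close in the KO animals and apart in the WT animals. It averaged 1.43 ± 0.00867 FPKM in KO and 1.90 ± 0.656 FPKM in WT, and Col6a3 averaged 1.18 ± 0.353 FPKM in KO and 1.64 ± 0.270 FPKM in WT (SD, n = 2 each). The ratio of Col6a1 to Col6a2 was 1.47 and 3.15 in KO animals and 2.89 and 2.58 in WT animals, so the groups overlapped.

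Of the remaining fibril-associated collagens, Col16a1 averaged 1.86 ± 0.774 FPKM in KO and 2.23 ± 0.324 FPKM in WT, and Col12a1 0.747 ± 0.0943 FPKM in KO and 1.06 ± 0.305 FPKM in WT (SD, n = 2 each). Col20a1 averaged 0.610 FPKM in KO and 0.636 FPKM in WT. Col19a1, which in mouse hippocampus is known from interneurons, was the 1 tested gene with a log2 fold change above 0 (0.04, SE 0.09, but -0.03 without KO2 and without WT1), at 1.59 ± 0.173 FPKM in KO and 1.53 ± 0.155 FPKM in WT (SD, n = 2 each). Col26a1, outside these subfamilies, averaged 1.04 FPKM in KO and 1.28 FPKM in WT. The 15 genes under the minimum, 3 fibrillar, 4 of basement membranes and 8 others, spanned 0 to 0.622 FPKM over single libraries, and both KO animals were below both WT animals in 6, above in 1 and overlapping in 8. Of the 17430 genes under the minimum and above 0 in at least 1 animal, 19.4% had both KO animals below both WT animals.

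The spread between libraries sets how far these gaps can be read. Over the 29 tested genes the median absolute log2 difference was 0.073 to 0.113 between technical replicates, 0.195 between the KO animals and 0.162 between the WT animals. Between a single KO and a single WT animal it was 0.137 (KO2 and WT1), 0.215 (KO1 and WT1), 0.281 (KO2 and WT2) and 0.357 (KO1 and WT2). For 1 of these 4 pairs, KO2 and WT1, the median gap was smaller than that between animals of 1 group. The deposited confidence limits of technical replicates overlapped in 174 of 176 pairs over the 44 genes. The limits of all KO libraries lay below those of all WT libraries in 4 of the 29 tested genes, Col18a1, Col8a1, Col8a2 and Col9a3, where 1.93% of all tested genes did so. They did likewise in Col4a4, which was not tested. They describe the error of a library, not of an animal. An exon of 13 of the 44 genes overlaps an exon of another annotated gene (for Col4a3, C430014B12Rik), and reads there cannot be divided.

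**Figure D4:**
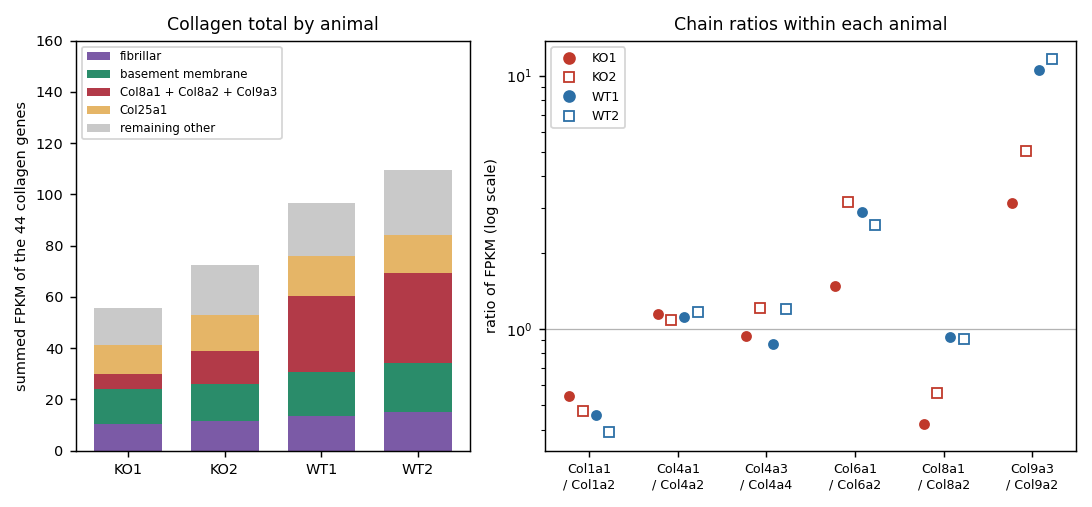
Left, summed FPKM of the 44 collagen genes in KO1, KO2, WT1 and WT2, stacked by class with Col8a1, Col8a2 and Col9a3 and Col25a1 apart. Right, the ratio of FPKM of partner chains in each animal (log axis), where the ratios of Col8a1 to Col8a2 and of Col9a3 to Col9a2 are lower in both KO animals and that of Col4a1 to Col4a2 is 1.08 to 1.17 in all 4.

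Most tested genes that build, bind and cut collagen also had log2 fold changes below 0, where 58.0% of all genes did. In limma, 0 genes of these lists passed. Of 20 biosynthesis enzymes and chaperones, all tested, 8 were lower and 0 higher at an unadjusted p under 0.05 (median log2 fold change -0.17), to be read against the 11.4% of all genes that were lower. Serpinh1, which encodes the collagen chaperone Hsp47, averaged 7.63 ± 0.493 FPKM in KO and 11.9 ± 1.97 FPKM in WT, and Crtap, of the prolyl 3-hydroxylation complex, 3.16 ± 0.268 FPKM in KO and 5.49 ± 0.866 FPKM in WT (SD, n = 2 each). P3h3, a prolyl 3-hydroxylase, had a log2 fold change of -0.45. Of 14 processing and cross-linking genes, 9 were tested, 4 lower and 1 higher (median -0.13). Pcolce, an enhancer of procollagen cleavage, averaged 4.62 ± 2.45 FPKM in KO and 16.2 ± 5.85 FPKM in WT, and its relative Pcolce2 2.43 ± 0.505 FPKM in KO and 6.19 ± 0.726 FPKM in WT (SD, n = 2 each). The lysyl oxidase Loxl1 averaged 1.08 ± 0.255 FPKM in KO and 2.05 ± 0.340 FPKM in WT (SD, n = 2 each).

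The 10 collagen-binding matrix genes had the lowest median of these lists, -0.36, and all 10 had log2 fold changes below 0. Counts of lower and higher genes in this paragraph are at an unadjusted p under 0.05 in limma. They are to be read against the 11.4% of all genes that were lower. Of the 10 matrix genes, 6 were lower and 0 higher. Biglycan, Bgn, was at 6.82, 6.48, 6.37 and 6.81 FPKM in KO libraries, against 12.4, 12.5, 15.1 and 15.1 FPKM in WT libraries, which do not overlap (log2 fold change -0.95, SE 0.10, limma adjusted p = 0.0904). Tnxb, a tenascin, and Lum, the proteoglycan lumican, had log2 fold changes of -0.22 and -0.49. Of 15 basement membrane partners 13 were tested, 4 lower and 0 higher (median -0.11): nidogen-2, Nid2, averaged 0.988 ± 0.282 FPKM in KO and 2.97 ± 0.0354 FPKM in WT (SD, n = 2 each), and perlecan, Hspg2, and the laminin chain Lamb1 had log2 fold changes of -0.59 and -0.38. Of 11 receptors 9 were tested, 3 lower and 0 higher (median -0.12), namely the integrin chain Itga10 at -0.39, which reached the minimum in WT animals alone, and the discoidin receptors Ddr2 and Ddr1 at -0.29 and -0.18. Of 12 genes of degradation 9 were tested, 4 lower and 1 higher (median -0.26), with the protease inhibitor Timp3 at -0.59 and the proteases Mmp2 and Mmp15 at -0.42 and -0.41. Log2 fold changes were below 0 in 6 of these 9, where 58.0% of all genes were. The other 3 had both KO animals above both WT animals, and the share of all genes that did so was not counted.

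Summed markers of choroid plexus, fibroblasts, blood and ependyma were lower in both KO animals than in both WT animals. The 12 choroid plexus markers, none of them at 0 in any library, summed to 290 and 1242 FPKM in KO animals, against 4259 and 7519 FPKM in WT animals. All 4 KO libraries lay below all 4 WT libraries in 12 of 12, where 13.0% of all genes did. Their order of animals, KO1, KO2, WT1 and WT2 from low to high, was also that of Col8a1, Col8a2, Col9a3, Col4a3, Col4a4, Col18a1 and the collagen sum. That order held in 11 of the 29 tested collagen genes and in 11.9% of all genes tested. The 12 markers of meningeal and perivascular fibroblasts, chosen with no collagen among them, summed to 48.4 and 76.1 FPKM in KO animals and 122 and 199 FPKM in WT animals. Their log2 fold changes ranged from -2.04 to -0.11 (median -0.44). Both KO animals lay below both WT animals in 7 of the 12, where 30.7% of all genes did, and the animals overlapped in 5. Blood markers summed to 149 and 158 FPKM in KO animals and 287 and 317 FPKM in WT animals. Of these 5 genes, 2 were called lower in limma at an adjusted p under 0.05, where 0.054% of all genes were. Dcn, Lum and Ogn stand on both the fibroblast list and that of collagen-binding genes. The 5 ependymal markers summed to 25.7 and 43.1 FPKM in KO animals and 61.3 and 50.5 FPKM in WT animals.

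Vessel wall, neuron and glial markers differed less. Endothelial markers summed to 57.7 and 57.2 FPKM in KO animals and 58.9 and 64.8 FPKM in WT animals, 92.9% of WT, and those of pericytes and smooth muscle to 49.2 and 53.6 FPKM in KO animals and 55.3 and 62.3 FPKM in WT animals, 87.4% of WT. Markers of hippocampal neurons were higher, at 1731 and 1624 FPKM in KO animals and 1482 and 1471 FPKM in WT animals. So were those of microglia, at 72.5 and 69.5 FPKM in KO animals and 66.7 and 61.3 FPKM in WT animals. Sums of astrocyte markers (380 and 377 FPKM in KO, 394 and 359 FPKM in WT) overlapped between groups. Those of oligodendrocytes (3045 and 2662 FPKM in KO, 2746 and 2564 FPKM in WT) overlapped too. The part of any of these cell types in the collagen values was not tested, and in whole tissue fewer cells of a type and less RNA per cell cannot be told apart.

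**Figure D5:**
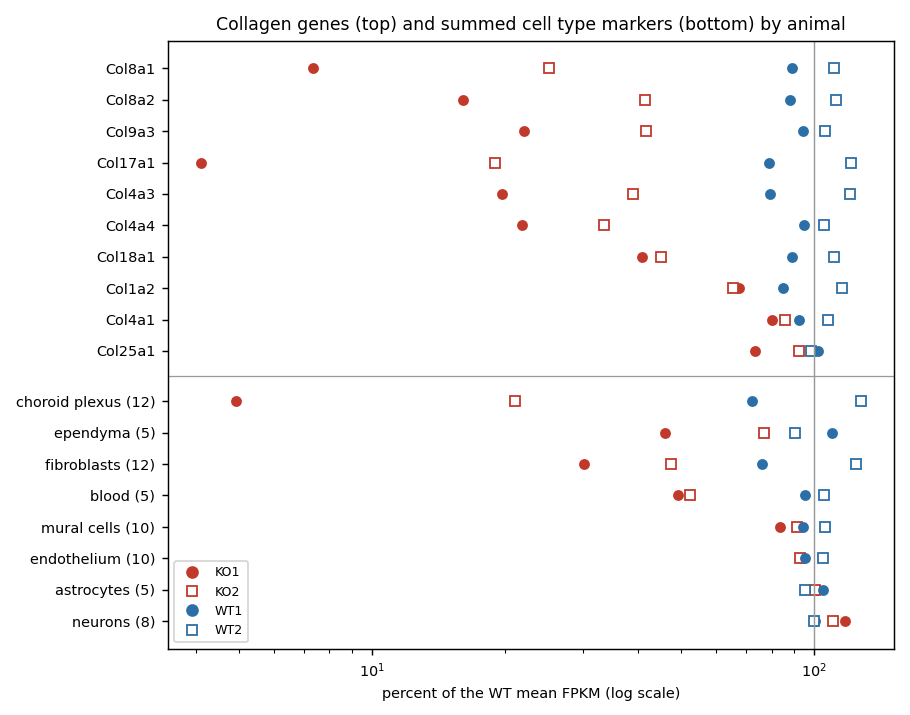
Level of 10 collagen genes (top) and summed level of cell type marker lists (bottom, number of markers in brackets) in KO1, KO2, WT1 and WT2, as a percent of the WT mean FPKM (log axis). Col8a1, Col8a2, Col9a3 and the choroid plexus markers lie far left in KO1 and less far in KO2. In KO1 and KO2, Col4a1 lies at 80.0 and 85.9, mural cells at 83.6 and 91.2 and endothelium at 93.3 and 92.5. Where points coincide the last drawn covers the others.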

How the data were processed

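Hippocampal RNA of 2 KO and 2 WT animals was read from gene tables of 8 libraries. Per the file headers, the authors deposited FPKM with lower and upper limits and a status. Bowtie (version 1), HISAT and mm10 are named in the submitters' processing notes. How FPKM were computed and scaled, and with which strand setting, is not given in the sources used here, so overlapping genes cannot be separated. FPKM are relative to the library total, and depth is unknown. Repeated rows of a gene (53 per library) were summed, values with a status other than OK (0 to 3 per library) were left out, and technical replicates were averaged. Genes with at least 0.5 FPKM in at least 2 animals were tested as log2(FPKM + 1), KO minus WT, with limma 3.58.1 (trended variance) in R 4.3.3 and Benjamini-Hochberg adjustment over 16667 genes at 0.05. The added 1 shrinks fold changes of low genes. The procedure was tested on simulated data, in which rises were planted only in genes at levels above those of most collagen genes. It therefore does not show how well falls in genes of low level are found. Coordinates are those of the tables, equal to GENCODE M21 for all 44 members, and figures were drawn with matplotlib 3.10.9.

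The members and gene lists were chosen with earlier results of these data known. Values per library were given for members past the threshold, with an unadjusted p under 0.05 or with a mean of at least 5 FPKM (10 genes), group means for 19 and ranges for 15. Of each collagen-related list, members past the threshold and up to 3 with the smallest p were named. Col4a3, Col4a4, Col6a1, Col6a4, Col10a1 and other members given beyond this rule were chosen after their values were seen. Alternatives were other scalings, minimums, pseudocount, single technical replicates, the animal number as a block and each animal left out.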

Additional observations from a re-analysis of the deposited data

How the results depend on the processing

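The 29 tested collagen genes gave 368 values under 13 alternatives (9 could not be had because a gene was then under the minimum), of which 350 kept their direction and side of the threshold. The 12 that changed sign all lay near 0 and far from the threshold. After quantile normalization Col20a1, Col11a2, Col3a1 and Col15a1 had log2 fold changes of 0.051, 0.034, 0.022 and 0.011, and with the second technical replicates alone Col20a1 and Col3a1 had 0.050 and 0.038. With 1 animal left out, Col20a1 ranged from -0.13 to 0.073, Col11a2 from -0.20 to 0.052, Col16a1 from -0.48 to 0.082, Col3a1 from -0.13 to 0.0033 and Col19a1 from -0.032 to 0.10. The remaining 6 are Col8a1, Col8a2 and Col9a3, which did not pass as reported. They passed in limma with the animal number as a replicate block (adjusted p = 0.0305, 0.0489 and 0.0478), where 3 collagen genes and 184 of all genes passed, and without KO2 (0.0289, 0.0382 and 0.0189). Over all alternatives their adjusted p ranged from 0.0289 to 0.461, 0.0382 to 0.548 and 0.0189 to 0.486. The cause was not tested. The animal numbers are not stated to pair mice, and deviations of same-numbered animals correlated at 0.107 across 16667 genes, which are not independent.

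Collagen calls numbered 0 to 3 and calls among all genes 0 to 128 when 1 animal was left out, with 128 without KO2, 1 without KO1 and 0 without WT1 or WT2 (1631 and 1327 at an unadjusted p under 0.05); the lone animal is then assumed to vary like the other group. With the replicate block, 11 of 29 collagen genes were lower at an unadjusted p under 0.05, where 12.1% of all genes were. Against 9 as reported, all genes gave 0 calls of 34097 with no minimum (3741 unadjusted), where more genes are tested, 14 with a pseudocount of 0.1, 19 and 35 from the first and second technical replicates alone and 20 without the first library of KO1, an alternative added after seeing the data. The collagen median of -0.23 was -0.14 after quantile normalization, -0.36 with a pseudocount of 0.1 and -0.31 to -0.14 when 1 animal was left out; a pseudocount of 0.1 gave -0.41 for fibrillar, -0.26 for basement membrane and -0.39 for other collagens. With 2 animals a group and no read totals, small gaps are not resolved.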
